A study of Mus musculus with 19 samples.

Results

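Bhlhe40, Bhlhe41, Mitf, Tfec, Tfeb, Tfe3, Myc, Mycl and Mxd1 are 9 of the 23951 genes in the deposited tables, and all 9 were found there by symbol. They were taken as a named set of related transcription factors, with earlier results of these data known. Levels were measured by RNA sequencing of mouse hippocampal microglia sorted for CD11b and CD45, in 5 groups of 3 libraries. Values are FPKM, which counts fragments per length of transcript, scaled to a library's mapped fragments, so levels of different genes can be compared per length.

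At 4.5 months the groups were CK-p25 PU.1 cKO (Cx3cr1CreER+/-, CK-p25, PU.1 fl/fl), CK-p25 (Cx3cr1CreER+/-, CK-p25, no floxed PU.1) and CK (Cx3cr1CreER+/-, CK, control littermates). All 3 groups received tamoxifen at 50 mg/kg on 5 days when p25 was induced, and tissue was taken 6 weeks later. At 3 months the groups were labelled PU.1 cKO (PU.1 fl/fl, Cx3cr1CreER+/-) and labelled control (Cx3cr1CreER+/-), both collected 1 week after the same tamoxifen course. In CK-p25 mice the Cdk5 activator p25 is induced in forebrain neurons, which then degenerate. The Cre is driven from the Cx3cr1 locus, which microglia share with other Cx3cr1-expressing myeloid cells, and every group carries it. Whether each library is a separate animal is not stated in the labels, and p-values therefore measure only a spread between samples that may be technical.

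All 9 proteins bind DNA as dimers through a basic helix-loop-helix domain, and many of their sites hold the E-box CACGTG. Bhlhe40 and its paralog Bhlhe41 are repressors, known from the feedback of the circadian clock and from immune cells. Mitf, Tfec, Tfeb and Tfe3 form the MiT/TFE family, which drives lysosome and autophagy genes. Its members are held in the cytoplasm when the kinase complex mTORC1 phosphorylates them on the lysosome, so their mRNA level is not their activity. Myc and Mycl activate growth and metabolism genes as partners of Max, and Mxd1 competes for Max and represses.

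The E-box was searched in the 250 bases before each annotated start site (RefSeq, GRCm38.p6), to show where members could meet their own kind of site. That assembly differs from the mm9 build of the deposited values, and only names link the 2. CACGTG reads the same on both strands and occurred in 6.02% of 32851 windows. Of the members, 7 (all but Bhlhe40 and Myc) matched the table with 12 windows, and 1 window, that of Bhlhe41 (chr6:145865421-145865670, minus strand), held it. The capitals mark the E-box, whose first base lies 153 bases before the start.
Bhlhe41: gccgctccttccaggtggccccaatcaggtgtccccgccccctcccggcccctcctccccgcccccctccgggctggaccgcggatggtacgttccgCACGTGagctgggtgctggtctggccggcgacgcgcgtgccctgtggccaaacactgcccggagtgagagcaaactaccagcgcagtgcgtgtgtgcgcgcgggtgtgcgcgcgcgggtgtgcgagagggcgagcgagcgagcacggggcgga

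The longer palindrome TCACGTGA, which contains CACGTG, is the core of the lysosomal gene element that MiT/TFE factors bind. It occurred in 0.785% of all windows, in 0 of the 12 member windows, and in 4 of 28 windows of a list of textbook MiT/TFE target genes (14.3%), of which 24 of 31 genes matched. The sites of those 4 genes are shown with up to 11 bases on either side and the palindrome in capitals, since the levels of these genes are given further on. They lie at chr16:44139373-44139402 (Atp6v1a, minus strand), chr2:164833749-164833772 (Ctsa, plus strand), chr7:142387908-142387937 (Ctsd, minus strand) and chrX:134601215-134601244 (Gla, minus strand, the first of 2 in its window).
Atp6v1a: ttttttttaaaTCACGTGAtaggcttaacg
Ctsa: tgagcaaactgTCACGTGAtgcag
Ctsd: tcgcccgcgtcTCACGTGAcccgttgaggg
Gla: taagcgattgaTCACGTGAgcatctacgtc
A match of letters is a description and was not tested as a binding site.

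Between 10140 and 10954 genes reached 1 FPKM in a library, and the read depth is unknown. All 10 markers of microglia, the sorted cell type, were at 1 FPKM or more in every group. CK-p25 replicate 3 was the only library of its sequencing run, and 42.1% of genes were listed at 0 in it. That share was 31.6% to 36.4% in the other 4.5-month libraries and 38.7% to 42.9% in the 3-month libraries. In the 3-month set the labels contradict each other. Titles and descriptions, followed here, make the columns named for PU.1 the controls, while the source names point the other way. Spi1, which encodes PU.1, went against the titles at 409, 338 and 337 FPKM in labelled PU.1 cKO and 261, 105 and 248 FPKM in labelled control. These groups did not overlap, but Spi1 did not pass (log2 0.92 ± 0.35, SE, limma, adjusted p = 0.0853). At 4.5 months CK-p25 PU.1 cKO libraries had Spi1 at 165, 152 and 224 FPKM, with 251, 208 and 298 FPKM in CK-p25, and 256, 230 and 251 FPKM in CK. The cKO libraries overlapped CK-p25, and Spi1 did not pass there (log2 -0.49 ± 0.17, SE, limma, adjusted p = 0.745). They did not overlap CK, and Spi1 did not pass there either (log2 -0.46 ± 0.17, SE, limma, adjusted p = 0.0751).

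The first comparison, of CK-p25 with CK, asks how the factors differ in microglia of the degenerating hippocampus. Bhlhe40 and Mitf rose, while Mycl, Mxd1 and Tfe3 fell. Bhlhe41, Tfeb and Myc did not pass the threshold, and Tfec was too low to be tested.  In all, 2 of the 8 tested members were higher and 3 lower at an adjusted p under 0.05, where 17.6% and 13.7% of the 10894 genes tested were (31.3% in either direction).

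Bhlhe40 was at 42.5, 29.9 and 39.6 FPKM in CK-p25 microglia, against 0.444, 0.871 and 1.13 FPKM in CK. All 3 CK-p25 libraries lay far above every CK library. On the log2(FPKM + 1) scale, which understates the change of low genes, the difference was 4.40 ± 0.19 (SE, n = 3 each; 95% interval 3.98 to 4.83; limma, adjusted p = 3.88e-06), rank 29 among the rises of all tested genes. The reads of the overlapping gene 0610040F04Rik cannot be told apart by strand. That gene was listed at no more than 0.426 FPKM in any library, from the same unstranded reads, and its part was not tested.

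Bhlhe41, the paralog, was at 13.4, 9.49 and 20.1 FPKM in CK-p25 and at 12.9, 9.75 and 11.6 FPKM in CK. These groups overlapped, with a difference of 0.25 ± 0.24 (95% interval -0.29 to 0.80; adjusted p = 0.455). Bhlhe40 thus made up 72.8 ± 5.58% of the summed FPKM of the pair in CK-p25 and 6.82 ± 3.04% in CK (SD, n = 3). The plot of levels at 4.5 months shows the pair side by side.

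**Figure D1:**
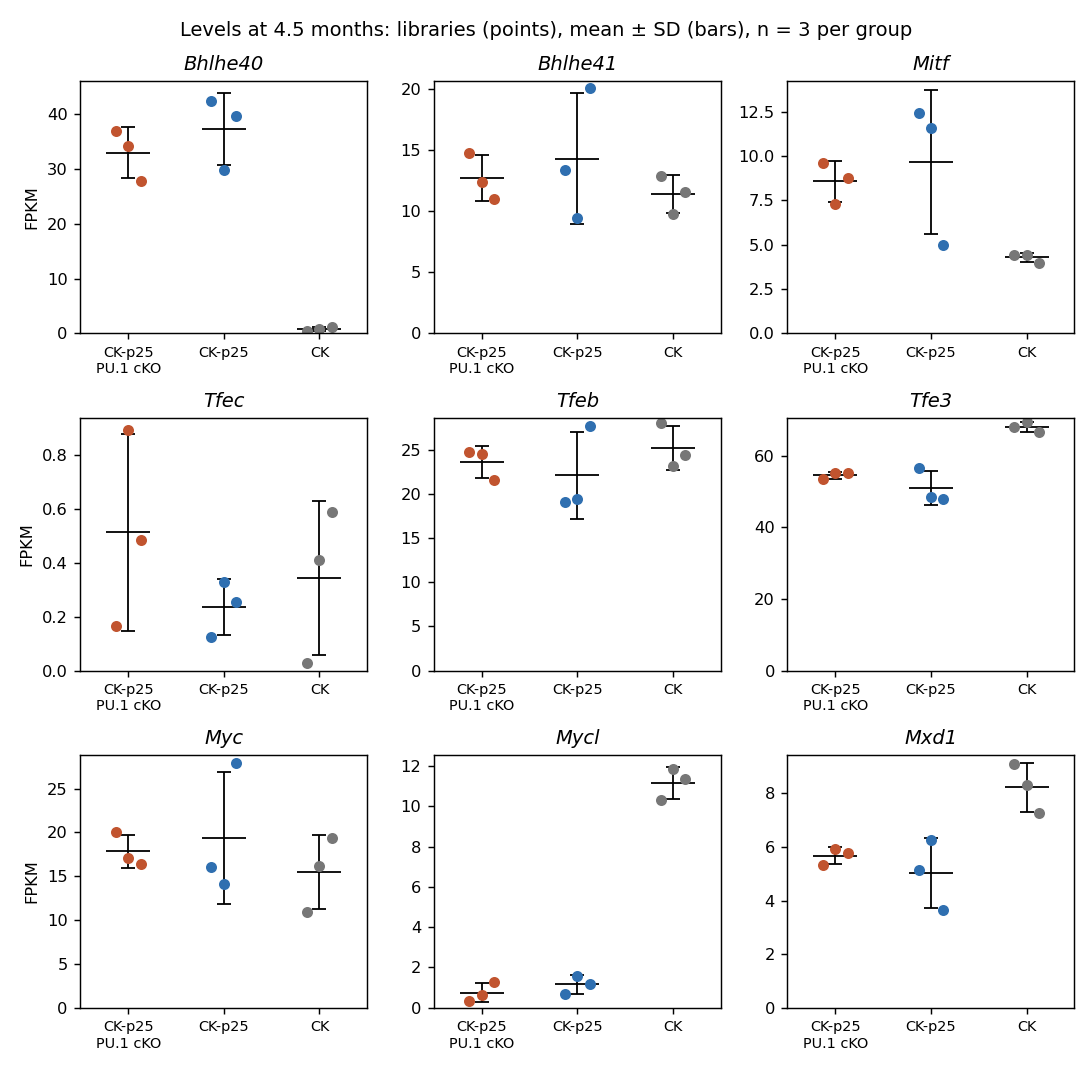
FPKM (linear axis from 0, own scale per gene) of the 9 genes in CK-p25 PU.1 cKO, CK-p25 and CK, with points for libraries and bars for mean ± SD (n = 3). Bhlhe40 is at 27.9 FPKM or more in all 6 CK-p25 PU.1 cKO and CK-p25 libraries and at most 1.13 FPKM in CK, while Mycl is at most 1.59 FPKM in those 6 and at least 10.3 FPKM in CK.

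Among the MiT/TFE genes, Mitf, known as the regulator of pigment cells and osteoclasts, was at 12.4, 11.6 and 5.00 FPKM in CK-p25 and at 4.43, 4.43 and 3.99 FPKM in CK. CK-p25 replicate 3 lay just above the CK libraries and the other CK-p25 libraries well above. The difference was 0.93 ± 0.28 (95% interval 0.29 to 1.57; adjusted p = 0.0367). It was 1.30 without CK-p25 replicate 3, within the run of the other 8 libraries (adjusted p = 0.000191). The call was lost without any other single library (adjusted p from 0.0528 without CK-p25 PU.1 cKO replicate 2 to 0.105 without CK-p25 replicate 1), with no filter (0.067) and with the compared libraries alone (0.0827).

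Tfe3, the member with the highest level in all 3 groups, was at 56.5, 48.6 and 47.9 FPKM in CK-p25 and at 68.0, 69.3 and 66.6 FPKM in CK. Every CK-p25 library was below every CK library, by -0.41 ± 0.08 (95% interval -0.60 to -0.23; adjusted p = 0.00599). Tfeb, the best known driver of lysosome genes, was at 19.1, 19.5 and 27.8 FPKM in CK-p25 and at 28.1, 23.2 and 24.5 FPKM in CK. CK-p25 replicate 3 set the overlap: the difference was -0.20 ± 0.15 (95% interval -0.54 to 0.14; adjusted p = 0.347), and -0.37 without that library (adjusted p = 0.022).

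Tfec, a MiT/TFE gene known mainly from macrophages, was at 0.123, 0.330 and 0.255 FPKM in CK-p25 and at 0.0293, 0.410 and 0.587 FPKM in CK. Its mean over the table was under the filter of 1 FPKM, so it was not tested. The sum over the 4 MiT/TFE genes was 83.0 ± 4.47 FPKM in CK-p25 and 97.9 ± 2.50 FPKM in CK. Within it Mitf held 11.6 ± 4.69% in CK-p25 and 4.38 ± 0.190% in CK, and Tfe3 held 61.3 ± 2.51% in CK-p25 and 69.5 ± 1.79% in CK.

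Of the Myc family, Mycl, known in mice from dendritic cells, was at 0.692, 1.59 and 1.18 FPKM in CK-p25, against 10.3, 11.9 and 11.3 FPKM in CK. The groups were far apart, with a difference of -2.52 ± 0.23 (95% interval -3.03 to -2.0; adjusted p = 0.000139). Myc itself was at 16.1, 14.1 and 28.0 FPKM in CK-p25 and at 10.97, 16.2 and 19.4 FPKM in CK, and the groups overlapped (0.28 ± 0.27; 95% interval -0.34 to 0.89; adjusted p = 0.469). Mycl made up 6.11 ± 3.50% of the summed FPKM of Myc and Mycl in CK-p25 and 42.5 ± 5.76% in CK.

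Mxd1, the repressive partner of Max, was at 5.14, 6.26 and 3.66 FPKM in CK-p25 and at 9.09, 8.33 and 7.28 FPKM in CK. Its groups did not overlap, and the difference was -0.64 ± 0.16 (95% interval -1.01 to -0.26; adjusted p = 0.0188). The call was lost without CK replicate 1 (-0.57, adjusted p = 0.0696), without CK replicate 2 (-0.63, adjusted p = 0.0617) and with the compared libraries alone (adjusted p = 0.0552). Groups did not overlap in 5 of the 8 tested members and in 46.5% of all tested genes.

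Ordered by level within CK-p25, Tfe3 was followed by Bhlhe40, and the neighbours from Tfeb through Myc, Bhlhe41 and Mitf to Mxd1 overlapped one another in their libraries. Mycl and Tfec came last. In CK, Bhlhe40 stood at place 8 of 9, overlapping Tfec, and Mycl at place 5, with libraries that overlapped those of Bhlhe41. Summed microglia markers were lower in CK-p25 (17016 to 18857 FPKM) than in CK (25939 to 28327 FPKM). All 8 astrocyte markers were at 1 FPKM or more in CK-p25 and 7 in CK, with sums of 105.5 to 408 FPKM in CK-p25 and 59.2 to 91.5 FPKM in CK. The part of either in these results was not tested, and in bulk samples fewer cells of a type cannot be told from less RNA per cell.

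**Figure D2:**
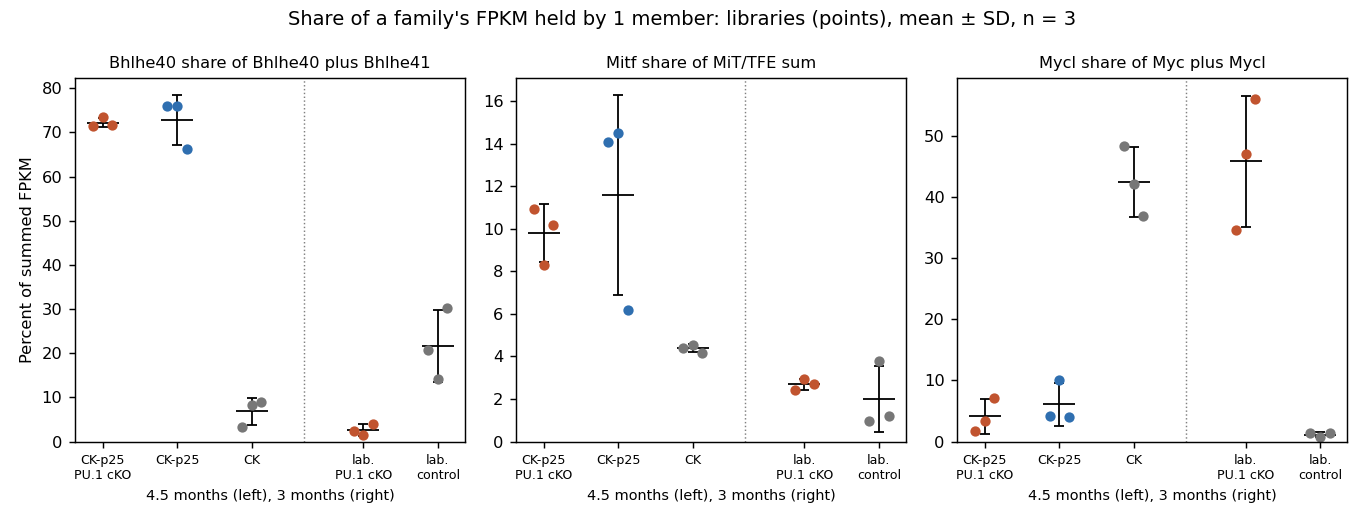
Percent of a family's summed FPKM held by Bhlhe40, Mitf or Mycl (linear axes from 0) in the 5 groups, with points for libraries and bars for mean ± SD (n = 3). Bhlhe40 holds 66.3% or more of its pair in every CK-p25 PU.1 cKO and CK-p25 library and 8.91% or less in CK, and Mycl holds 34.7% or more of its pair in the 3 libraries labelled PU.1 cKO at 3 months.

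The second comparison, of CK-p25 PU.1 cKO with CK, shares its CK libraries with the first. Bhlhe40 rose, and Mycl and Tfe3 fell. Bhlhe40 measured 37.0, 34.2 and 27.9 FPKM in the CK-p25 PU.1 cKO libraries and at most 1.13 FPKM in CK (4.24 ± 0.19, adjusted p = 5.33e-06). Mycl measured 0.345, 0.610 and 1.27 FPKM in the CK-p25 PU.1 cKO libraries and at least 10.3 FPKM in CK (-2.84 ± 0.23, adjusted p = 7.5e-05). For both genes the CK-p25 PU.1 cKO libraries lay far from every CK library.

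Tfe3 measured 53.5, 55.3 and 55.1 FPKM in the CK-p25 PU.1 cKO libraries, below each CK library (-0.31 ± 0.08, adjusted p = 0.0201). Leaving out 1 library ended the call in 5 cases: adjusted p was 0.0681 and 0.0572 without CK-p25 PU.1 cKO replicates 1 and 2, and 0.0601, 0.0745 and 0.0544 without CK replicates 1, 2 and 3. Mitf, at 9.62, 7.32 and 8.75 FPKM, and Mxd1, at 5.32, 5.91 and 5.79 FPKM, did not overlap CK but did not pass: the differences were 0.85 ± 0.28 (adjusted p = 0.0501) and -0.46 ± 0.16 (0.0605). Both passed when CK-p25 replicate 3, a library of neither group, was left out of the shared estimate of the spread (adjusted p = 0.000528 for Mitf, 0.00804 for Mxd1).

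Bhlhe41 (14.7, 12.4 and 11.02 FPKM), Tfeb (24.8, 24.6 and 21.6) and Myc (20.0, 17.1 and 16.4) overlapped CK, with differences of 0.14, -0.09 and 0.22 (adjusted p = 0.691, 0.694 and 0.581). Tfec, untested, measured 0.164, 0.892 and 0.483 FPKM in the CK-p25 PU.1 cKO libraries. Thus 1 member was higher and 2 lower of 8, where 17.8% and 13.3% of all tested genes were (31.1% in either direction), and 5 of 8 did not overlap, against 58.5% of all genes. Summed microglia markers were 15567 to 17547 FPKM in the CK-p25 PU.1 cKO libraries, again below CK. Monocyte marker sums were 35.2 to 57.4 FPKM in the CK-p25 PU.1 cKO libraries and 3.87 to 18.7 FPKM in CK, and astrocyte sums were 102 to 271 FPKM in the CK-p25 PU.1 cKO libraries and 59.2 to 91.5 FPKM in CK. Their part was not tested.

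The comparison of CK-p25 PU.1 cKO with CK-p25 asks what the PU.1 alleles change in the degenerating hippocampus, and no member passed. With limma the count was 0 of 8, as it was for 0% of the 10894 genes tested. At an unadjusted p under 0.05 there were 0 of 8 members and 671 genes. No member had groups that did not overlap, against 9.38% of all genes (4.82% higher and 4.56% lower). For Mitf, Tfeb and Myc that overlap came from CK-p25 replicate 3 alone. Without it their differences were -0.45, 0.28 and 0.23, and still no gene passed. The share of all genes whose groups did not overlap was not taken without that library.

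Bhlhe40 averaged 33.0 ± 4.67 FPKM in the CK-p25 PU.1 cKO libraries and 37.4 ± 6.58 FPKM in CK-p25 (SD, n = 3), a difference of -0.17 with a 95% interval of -0.60 to 0.26 (adjusted p = 0.792). Mycl, with the smallest p of the members, averaged 0.742 ± 0.476 FPKM in the CK-p25 PU.1 cKO libraries and 1.16 ± 0.452 FPKM in CK-p25 (-0.32, interval -0.84 to 0.20; adjusted p = 0.745). A difference as large as either gene's difference from CK lies outside these intervals. Tfe3, the most evenly measured member, differed by 0.10 (interval -0.08 to 0.29) and Tfeb by 0.11 (-0.23 to 0.45). Wider intervals belonged to Mitf (-0.72 to 0.56), Myc (-0.68 to 0.56), Bhlhe41 (-0.66 to 0.44) and Mxd1 (-0.20 to 0.54). The sizes seen between CK-p25 and CK, 0.93 for Mitf and -0.64 for Mxd1, lie outside the intervals of these genes. A difference of 1 on the log2(FPKM + 1) scale lies outside all 8. That scale understates the change of low genes, so Mycl, at 0.742 and 1.16 FPKM, could differ by more in FPKM than its interval reads.

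**Figure D3:**
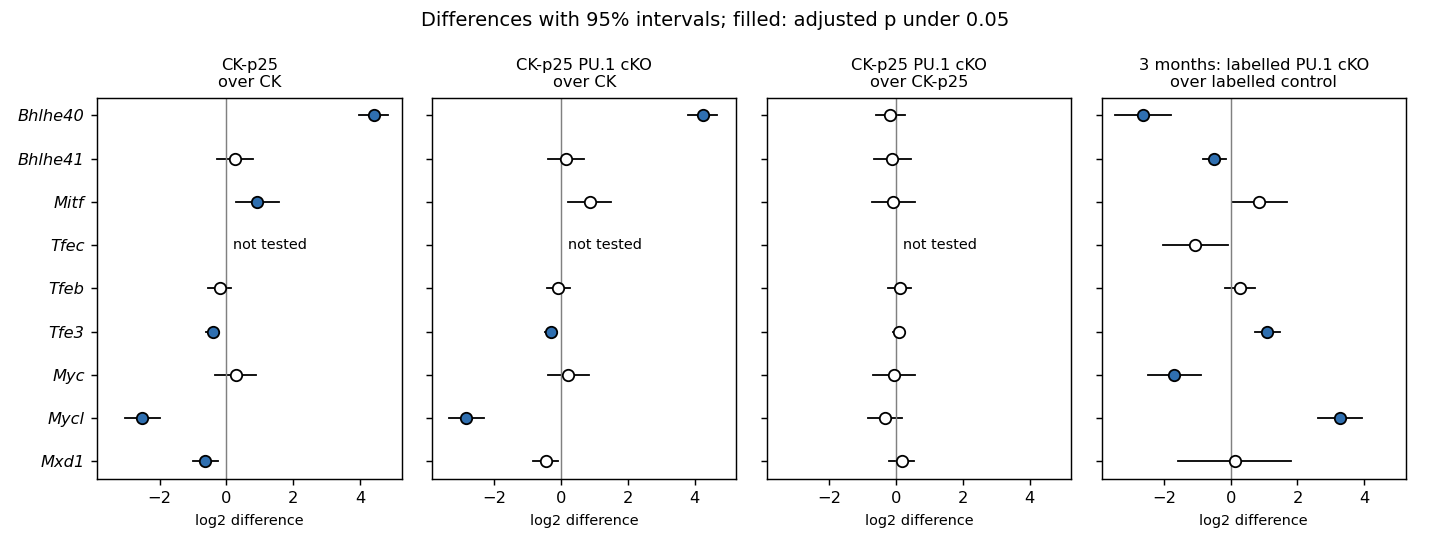
Log2(FPKM + 1) differences (points) with 95% intervals (lines) for the 9 genes in 4 comparisons, filled where the adjusted p was under 0.05 (limma). Bhlhe40 is at 4.40 and 4.24 and Mycl at -2.52 and -2.84 against CK, no point is filled between CK-p25 PU.1 cKO and CK-p25, and at 3 months, by the titles, Bhlhe40 is at -2.62 and Mycl at 3.27.

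At 3 months the libraries labelled PU.1 cKO were set against those labelled control, without p25. By the titles, Mycl and Tfe3 were higher in labelled PU.1 cKO, and Bhlhe40, Myc and Bhlhe41 were lower. The other reading of the labels turns every sign in this comparison. In all 2 of 9 members were higher and 3 lower, where 12.4% and 17.8% of the 10845 genes tested were (30.1% in either direction). The libraries did not overlap for 6 of 9 members, against 48.8% of all genes.

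Bhlhe40 was at 0.609, 0.352 and 0.921 FPKM in labelled PU.1 cKO, against 9.01, 5.28 and 14.6 FPKM in labelled control. The groups were apart by -2.62 ± 0.35 (SE, n = 3 each; adjusted p = 0.0024). Bhlhe41 was at 25.3, 23.2 and 22.3 FPKM in labelled PU.1 cKO and at 34.6, 32.1 and 33.7 FPKM in labelled control (-0.49 ± 0.15, adjusted p = 0.0448). The call was lost in 10 of 14 alternatives, including the fit without labelled control replicate 1 (adjusted p = 0.137) or 3 (0.0697), without labelled PU.1 cKO replicate 1 (0.0835), 2 (0.159) or 3 (0.156) and with the replicate number as a block (0.0617).

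Mycl was at 14.9, 13.9 and 20.9 FPKM in labelled PU.1 cKO, against 0.956, 0.293 and 1.30 FPKM in labelled control (3.27 ± 0.28, adjusted p = 0.000427). Myc was at 28.0, 15.7 and 16.3 FPKM in labelled PU.1 cKO, against 70.6, 41.5 and 90.9 FPKM in labelled control (-1.69 ± 0.34, adjusted p = 0.0104). The 2 genes differed in opposite directions with no overlap in either, and Mycl made up 46.0 ± 10.7% of their sum in labelled PU.1 cKO and 1.15 ± 0.388% in labelled control.

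Mxd1 was at 6.50, 8.44 and 8.84 FPKM in labelled PU.1 cKO and at 25.7, 6.37 and 1.75 FPKM in labelled control. The labelled control libraries reached both above and below the others (0.12 ± 0.72, adjusted p = 0.911). Replicate 1, at 25.7 FPKM, also had a neutrophil marker sum of 15953 FPKM, with at most 365.5 FPKM in each other 3-month library, and its part in the Mxd1 value was not tested. Without it the Mxd1 difference was 0.98, and without replicate 3 it was -0.66, neither past the threshold.

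Of the MiT/TFE genes, Tfe3 was at 76.7, 75.2 and 75.6 FPKM in labelled PU.1 cKO and at 37.5, 37.8 and 29.8 FPKM in labelled control (1.10 ± 0.16, adjusted p = 0.00354). Mitf was at 2.54, 3.01 and 2.69 FPKM in labelled PU.1 cKO and at 0.597, 2.49 and 0.577 FPKM in labelled control. These Mitf groups touched without overlap and did not pass (0.86 ± 0.35, adjusted p = 0.103); without labelled control replicate 2 the difference was 1.24 (0.00719), and after quantile normalization 0.99 (0.048). That replicate also had the highest border macrophage marker sum, 1629 FPKM, against 525 to 682 FPKM in the other labelled control libraries.

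Tfec was tested in this table, at 0.562, 0.938 and 0.243 FPKM in labelled PU.1 cKO and 0.887, 4.35 and 2.38 FPKM in labelled control. Its groups overlapped (-1.06 ± 0.42, adjusted p = 0.0915), and it passed without labelled control replicate 1 (-1.45, adjusted p = 0.0326). Tfeb was at 24.7, 23.5 and 21.8 FPKM in labelled PU.1 cKO and 21.8, 20.9 and 14.8 FPKM in labelled control (0.29 ± 0.19, adjusted p = 0.287). The sum of the 4 MiT/TFE genes was 102 ± 2.10 FPKM in labelled PU.1 cKO and 58.0 ± 9.35 FPKM in labelled control.

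By level, Tfe3 led in labelled PU.1 cKO, with Bhlhe41, Tfeb, Myc and Mycl overlapping their neighbours behind it. Myc led in labelled control at 67.7 ± 24.8 FPKM, above Tfe3 at 35.1 ± 4.57 and Bhlhe41 at 33.5 ± 1.25 FPKM, which overlapped. Summed microglia markers were at 28489 to 32846 FPKM in labelled PU.1 cKO and 8288 to 14948 FPKM in labelled control, and border macrophage markers at 311 to 375 FPKM in labelled PU.1 cKO and 525 to 1629 FPKM in labelled control. Monocyte sums were 7.39 to 41.7 FPKM in labelled PU.1 cKO and 51.1 to 1018 FPKM in labelled control. Sums of astrocyte markers (76.3 to 80.8 FPKM in labelled PU.1 cKO, 19.6 to 47.4 FPKM in labelled control) and lymphocyte markers (50.6 to 66.9 FPKM in labelled PU.1 cKO, 12.1 to 20.5 FPKM in labelled control) did not overlap either. Their part in the differences was not tested.

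**Figure D4:**
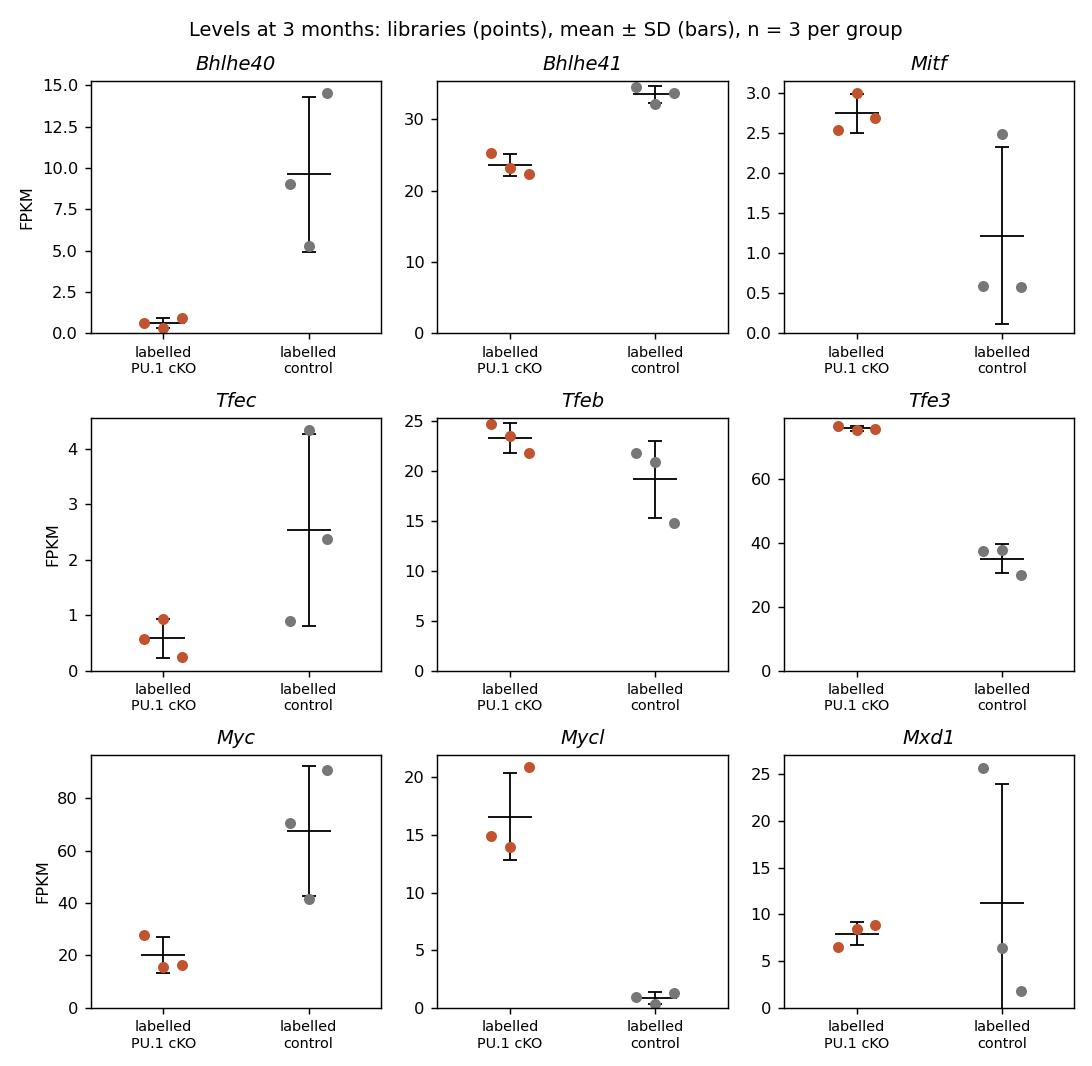
FPKM (linear axis from 0, own scale per gene) of the 9 genes in the libraries labelled PU.1 cKO and labelled control at 3 months, with points for libraries and bars for mean ± SD (n = 3). Mycl is at 13.9 FPKM or more in labelled PU.1 cKO and at most 1.30 FPKM in labelled control, Bhlhe40 and Myc lie the other way round, and the Mxd1 point at 25.7 FPKM is labelled control replicate 1.

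The genes around the factors were taken as 5 lists, chosen with earlier results of these data known, and are given by counts and medians. Of 29 tested textbook MiT/TFE targets 19 were higher and 1 lower in CK-p25 than in CK, where 17.6% and 13.7% of all genes were, with a median of 0.79 beside -0.00025 over all genes. Gpnmb, a lysosomal glycoprotein gene, averaged 95.2 ± 28.3 FPKM in CK-p25 and 0.384 ± 0.183 FPKM in CK (log2 6.09). Gla, the lysosomal alpha-galactosidase, was at 21.3 ± 1.74 FPKM in CK-p25 and 2.29 ± 0.232 FPKM in CK (2.76). Ctsb, cathepsin B, was at 4005 ± 38.5 FPKM in CK-p25 and 1022 ± 30.3 FPKM in CK (1.97). Atp6v0d2, a subunit of the proton pump, was at 5.59 ± 1.01 FPKM in CK-p25 and 0.0802 ± 0.0573 FPKM in CK (2.60). Sgsh, a heparan sulfate sulfatase, fell by 1.41 and was the 1 lower target, with 2 lower without CK-p25 replicate 3 and 3 after quantile normalization.

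Of the 4 targets whose E-boxes are printed, Gla, Ctsa (1.14) and Atp6v1a (1.02) were among the 19. Ctsd, cathepsin D, was listed at 0 in every CK-p25 PU.1 cKO library and in 2 CK-p25 libraries, with 30706 FPKM in CK-p25 replicate 3 and 12960 to 14566 FPKM in CK, so no fold is given for it. In the CK-p25 PU.1 cKO libraries 18 targets were higher and 4 lower than in CK, Ctsd among the lower from its zeros, with Gpnmb at 304 ± 170 FPKM. The 4 lower targets were 2 without CK-p25 PU.1 cKO replicate 1 or 2 or any 1 CK library.

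Of 21 genes of the Rag, folliculin, mTORC1 and calcineurin control of MiT/TFE factors 5 were higher in CK-p25 than in CK and 2 lower (median -0.05), counts near those over all genes (17.6% and 13.7%). Rragd, a Rag GTPase gene, was at 5.04 ± 2.05 FPKM in CK-p25 and 0.423 ± 0.0533 FPKM in CK (2.03), and Mcoln1, the lysosomal calcium channel, differed by 0.68 and Lamtor5 by 0.65. Rptor, the mTORC1 subunit raptor, fell by 0.80. Without CK-p25 replicate 3 the counts were 8 and 5, without CK replicate 2 the lower count was 0, and without any other single library it was 1. In CK-p25 PU.1 cKO 5 were higher than in CK and 0 lower, Rragd included (log2 1.5). Without CK-p25 replicate 3 these counts were 8 and 4, without CK-p25 replicate 1 the lower count was 1, and the higher count was 3 without replicate 1 or 2 of CK-p25 PU.1 cKO or of CK.

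Of 12 clock genes, 4 were lower in CK-p25 than in CK and 1 higher (median -0.50), where 13.7% and 17.6% of all genes were. Hlf, a clock output factor, averaged 0.356 ± 0.308 FPKM in CK-p25 and 4.44 ± 0.792 FPKM in CK (-2.02), and Tef differed by -0.89 and Nr1d2, a Rev-erb repressor, by -0.80. Ciart was the 1 higher gene (0.80), and that call was lost without CK-p25 replicate 2 or 3 or CK replicate 2 or 3. In CK-p25 PU.1 cKO 5 were lower than in CK and 0 higher, Nr1d1 (-1.01) and Dbp (-0.90) included, and 3 were lower without CK-p25 PU.1 cKO replicate 1 or 2 or CK replicate 1, while 1 was higher without CK-p25 replicate 1. The time of day of collection is not given in the sources used here.

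Of 21 textbook Myc targets 9 were higher in CK-p25 than in CK and 1, Tfrc, lower (median 0.31), where 17.6% and 13.7% of all genes were, while Myc itself did not pass. Npm1, nucleophosmin, was at 112 ± 4.16 FPKM in CK-p25 and 49.3 ± 1.93 FPKM in CK (1.17), and Ldha, lactate dehydrogenase A, differed by 1.12, Hspe1 by 0.91 and Nme1 by 0.68. Without CK replicate 3 the count of higher targets was 5, and the lower count was 0 without any 1 library other than CK-p25 replicates 1 and 3. In CK-p25 PU.1 cKO 6 were higher and 2 lower than in CK. Of the other Max and Mxd network genes, Mlx alone of 9 passed in CK-p25 against CK (0.36, adjusted p = 0.0366). The count was 0 without any single CK library and 3 without CK-p25 replicate 3, and 1 was lower without CK-p25 replicate 2. In CK-p25 PU.1 cKO against CK 0 of 9 passed, with 2 higher and 1 lower without CK-p25 replicate 3, and 1 lower without CK-p25 PU.1 cKO replicate 3, without CK-p25 replicate 2 and after quantile normalization.

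Between CK-p25 PU.1 cKO and CK-p25 0 genes of the 5 lists passed, and 1 MiT/TFE target passed, as higher, when replicate 3 of CK-p25 PU.1 cKO was left out. At 3 months 16 of 22 Myc targets were lower and 0 higher in labelled PU.1 cKO, where 17.8% and 12.4% of all genes were. Their median was -1.28, against -0.03 over all genes. By the titles Myc was lower too, and its part in these counts was not tested. Nme1 was at 32.9 ± 6.51 FPKM in labelled PU.1 cKO and 176 ± 104 FPKM in labelled control (-2.23), Ldha differed by -2.02 and Npm1 by -1.68. Leaving out single libraries gave 11 to 18 lower Myc targets, with 13 without labelled control replicate 1. Of clock genes 4 of 11 were higher and 0 lower (12.4% and 17.8% of all genes), with Nr1d2 at 1.78, Nr1d1 at 1.18, Tef at 1.16 and Dbp at 1.03, but 2 without labelled PU.1 cKO replicate 1 and 1 without replicate 3.

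Of 27 MiT/TFE targets at 3 months 6 were higher and 3 lower in labelled PU.1 cKO (median 0.16). Over all genes the shares were 12.4% and 17.8% (30.1% in either direction). Gpnmb (-3.45), Gla (-1.15) and Atp6v1a (-0.90) were lower, and Ctsf (1.75) and Vps18 (1.06) were among the higher, by the titles. The 6 were 2, 3 and 2 without labelled PU.1 cKO replicates 1, 2 and 3, and 3 without labelled control replicate 1. Of 20 Rag and mTORC1 genes Rptor (2.19) and Flcn, folliculin (0.81), were higher and Lamtor2 (-1.0) lower. Beside this list and the next, 12.4% of all genes were higher and 17.8% lower, and the Rag and mTORC1 genes did not exceed either share. Of 8 Max and Mxd network genes Mlxipl (1.37) and Mlxip (0.62) were higher, and Mxd3, another Max partner, was lower at 5.70 ± 0.546 FPKM in labelled PU.1 cKO and 31.4 ± 8.80 FPKM in labelled control (-2.23). Without any 1 labelled PU.1 cKO library or labelled control replicate 1, the higher count was 1 in either list, and also in the network without labelled control replicate 3. The lower count of Rag and mTORC1 genes was 0 without labelled PU.1 cKO replicate 2 or 3 and 3 without labelled control replicate 2, and that of the network was 2 without labelled control replicate 3.

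**Figure D5:**
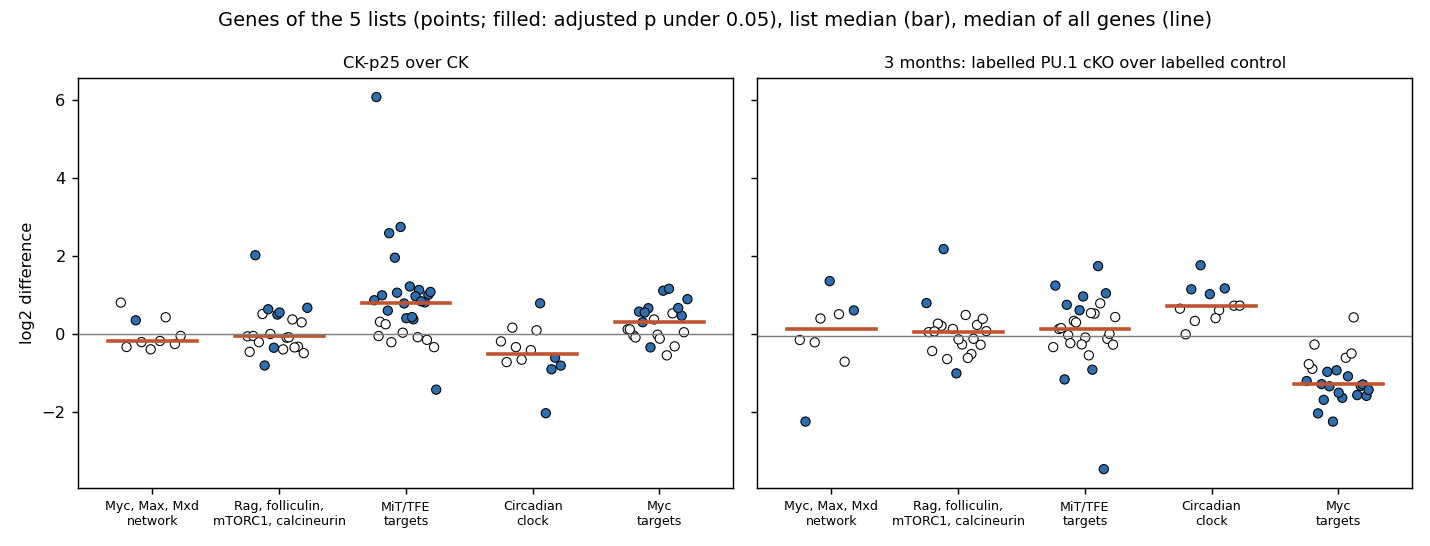
Log2(FPKM + 1) differences of the tested genes of 5 lists (points, filled where the adjusted p was under 0.05 with limma), with the list median as a bar and the median over all genes as a line. Ctsd is left out of the points and the bar because of its zeros; MiT/TFE targets lie mostly above the line in CK-p25 over CK, with Gpnmb at 6.09, and Myc targets lie mostly below it at 3 months, by the titles.

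Likeness to a member was measured as the root mean square difference of gene-centred log2(FPKM + 1) values over the 9 libraries at 4.5 months, which share tables and normalization. Nearest to Bhlhe40 were Ifi27l2a (0.19), Csf1 (0.25) and Chst2 (0.26). Csf1, a microglial growth factor gene, was at 161.8 to 196.4 FPKM in CK-p25 PU.1 cKO and CK-p25 libraries and at 7.98 to 9.15 FPKM in CK. Nearest to Mycl were Tmem44 (0.22), Klhdc8b (0.25) and Slc5a10 (0.27).

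Nearest to Mitf were Daam1 (0.11), Trpm2 (0.15) and Timm8b (0.16), and Daam1 too was low in CK-p25 replicate 3, at 2.73 FPKM beside 6.43 and 6.00 FPKM in the other CK-p25 libraries. The nearest gene was 5430427O19Rik for Bhlhe41 (0.08), BC003331 for Myc (0.11) and Avl9 for Mxd1 (0.066). Bhlhe41 and Myc were highest and Mxd1 lowest in CK-p25 replicate 3, and so were these nearest genes. 5430427O19Rik was at 32.2 FPKM there and at most 20.3 FPKM in any other library. BC003331 was at 19.5 FPKM there and at most 11.9 FPKM elsewhere, and Avl9 at 6.63 FPKM there and at least 10.2 FPKM elsewhere. Tfeb and Tfe3 spanned less than 1 on the log2 scale over the 9 libraries, and Tfec was not tested, so no likeness is given for them.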

How the data were processed

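The authors deposited FPKM values in 2 tables (3 and 4.5 months), each with 23951 genes, and TopHat, Bowtie, Cufflinks 2.0.0 and mm9 are named in the submitters' processing notes. RNA came from CD11b and CD45 sorted hippocampal microglia, with SMART-Seq v4 and Nextera XT kits per the labels' protocols, which keep no strand. Columns were matched to the 15 samples by their labels; 4 ChIP samples are not analysed here. Count models do not apply to FPKM, and the depth is unknown. Summed FPKM per library was 449784 to 650063.

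Values were analysed as log2(FPKM + 1), pseudocount 1, for genes averaging 1 FPKM or more over a table (10845 and 10894), with limma 3.58.1 in R 4.3.3 (trended), Benjamini-Hochberg adjustment over all tested genes, threshold 0.05, two-sided. Each table had 1 model, with 9 libraries sharing 1 spread at 4.5 months. The method was tested on simulated data with independent noise and planted differences, which held no odd library such as CK-p25 replicate 3. Members and lists were chosen with earlier results of these data known. Named genes are the 9 members, Spi1, up to 4 past-threshold genes per list with the largest differences between CK-p25 and CK, past-threshold list genes elsewhere, and the nearest 3 by likeness. Sgsh and Tfrc, the lower calls of their lists, and the palindrome genes Ctsa, Atp6v1a and Ctsd were added after their values were seen. Alternatives were a pseudocount of 0.1, filters, quantile and median scaling, no variance trend, compared libraries alone, a replicate block and leaving out each library.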

Additional observations from a re-analysis of the deposited data

How the results depend on the processing

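Bhlhe40 and Mycl against CK and at 3 months, Tfe3 in CK-p25 against CK and at 3 months, and Myc at 3 months kept their calls in every alternative that gave a value. Leaving out single libraries turned the sign of some values, none of them called. In CK-p25 against CK, Bhlhe41 ran from -0.0063 to 0.50 and Myc from -0.0061 to 0.46. In CK-p25 PU.1 cKO against CK-p25, Bhlhe41 ran from -0.35 to 0.15, Mitf from -0.45 to 0.13, Myc from -0.24 to 0.23 and Mxd1 from -0.0025 to 0.32. The low ends of the CK-p25 against CK ranges, the high ends for Bhlhe41 and Myc in the second, and the low ends there for Mitf and Mxd1 came without CK-p25 replicate 3. At 3 months Mxd1 ran from -0.66 (without labelled control replicate 3) to 0.98 (without replicate 1).

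Leaving out single libraries gave 902 to 2162 lower genes in CK-p25 against CK and 908 to 2398 in CK-p25 PU.1 cKO against CK (2396 with the compared libraries alone). Between CK-p25 PU.1 cKO and CK-p25 it gave 0 to 12 higher and 0 to 13 lower genes, 1 and 1 with no filter, and 1 or 2 higher after quantile scaling or with the compared libraries alone. At 3 months it gave 580 to 2010 higher and 960 to 2721 lower genes, with 2086 higher after quantile scaling. Quantile scaling moved the share of higher calls to 45.6% from 56.3% (CK-p25 against CK), 45.9% from 57.2% (CK-p25 PU.1 cKO against CK) and 53.0% from 41.1% (3 months, all-gene median shifted by 0.12). The cause was not tested.

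Same-numbered libraries did not all deviate together (correlations from -0.049 to 0.17 at 3 months and -0.016 to 0.13 at 4.5 months). At 3 months replicates 1 and 2 each matched best with their own number and replicate 3 did not. Some pairs at 4.5 months did as well. Whether the numbers pair libraries cannot be told from groups of 3, and the main fit has no pairing. With the replicate block 1 of 33 member results lost its call (Bhlhe41 at 3 months, limma, adjusted p = 0.0617). Many of the 33 had no call to lose, among them all 8 of CK-p25 PU.1 cKO against CK-p25. In that fit 1903 genes were higher in CK-p25 than in CK. Of 680 list counts under alternatives, 579 stayed within 1.5 times. These include counts of 0 that stayed 0, as nearly all did in CK-p25 PU.1 cKO against CK-p25. Unknown depth limits Tfec and the low group of Bhlhe40 and Mycl.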
